A study of Mus musculus with 18 samples.

Results

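In all, 10 genes of the circadian clock, out of 55487 gene IDs in the tables, were followed in regulatory T cells of 6 mouse organs. They were listed by gene name with no threshold on a measured value: the period genes Per1 and Per2, the cryptochrome genes Cry1 and Cry2, the nuclear receptor genes Nr1d1 and Nr1d2, the activator genes Arntl (whose protein is also called BMAL1) and Clock, and the output genes Dbp and Tef. All 10 had an ID in the tables, and all 10 were among the 16694 genes tested, those whose average reached 1 TPM in 1 organ or more. TPM is a length-normalised transcript abundance scaled to a common total per library. Regulatory T (Treg) cells, CD4+ T cells that carry the transcription factor Foxp3 and restrain immune responses, were sorted fresh from mice of wild-type genotype that had received no treatment. They came from peripheral blood, bone marrow, liver, lung, lymph node and spleen, and every organ had 3 libraries of poly(A) RNA, 18 in all. The series addresses how Treg cells of the blood compare with those of other organs. The labels used here do not give the hour of collection, the sort gates, the age or sex of the mice, or whether the 3 libraries of an organ came from separate animals, so the p-values measure the spread between these libraries, which may be technical. Because the organs may have been taken at different hours, hour of collection and organ cannot be told apart.

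The clock is a feedback loop of transcription that runs once a day in nearly every cell of the body. CLOCK and ARNTL proteins bind E-box motifs as a pair and switch on the Per, Cry, Nr1d, Dbp and Tef genes. PER and CRY proteins then return to the nucleus and hold that pair back. In another loop, NR1D1 and NR1D2 repress Arntl and the ROR receptors activate it through the same DNA element, so the mRNAs of Arntl and of the E-box outputs usually peak at opposite times of day. DBP and TEF activate genes through D-box motifs, which the repressor NFIL3 also binds. Per1 is also an acute response gene, switched on through cAMP signalling and through glucocorticoids. In T cells the clock is known to run autonomously.

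The stretches upstream of 5 member genes are shown because they hold, or lack, the letters these loops are read through. They are the bases before annotated RefSeq starts (build GRCm38.p6, 5′ to 3′ on the gene's strand, exon bases removed), with E-box (CACGTG) and D-box (TTATGNAA) matches on either strand in capitals. They lie at chr11:69098699-69098947 on the plus strand for Per1, chr10:85185065-85185304 on the minus strand for Cry1, chr15:81811164-81811413 on the plus strand for Tef, chr7:113207215-113207464 on the plus strand for Arntl and chr14:18239128-18239356 on the minus strand for Nr1d2.
Per1: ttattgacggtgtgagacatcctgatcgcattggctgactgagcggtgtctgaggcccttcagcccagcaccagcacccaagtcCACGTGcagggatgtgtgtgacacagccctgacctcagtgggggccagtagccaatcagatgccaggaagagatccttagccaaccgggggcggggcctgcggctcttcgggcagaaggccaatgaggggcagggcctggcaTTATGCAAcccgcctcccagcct
Cry1: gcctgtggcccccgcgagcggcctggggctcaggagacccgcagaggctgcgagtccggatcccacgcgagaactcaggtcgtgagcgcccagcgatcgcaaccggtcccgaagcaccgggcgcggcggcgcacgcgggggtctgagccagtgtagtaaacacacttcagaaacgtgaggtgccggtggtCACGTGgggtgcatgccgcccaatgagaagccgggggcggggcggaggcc
Tef: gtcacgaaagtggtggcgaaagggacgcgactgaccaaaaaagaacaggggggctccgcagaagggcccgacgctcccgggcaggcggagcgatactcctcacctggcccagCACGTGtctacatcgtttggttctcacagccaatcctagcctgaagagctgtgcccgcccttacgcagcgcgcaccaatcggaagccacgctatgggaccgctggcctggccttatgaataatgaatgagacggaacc
Arntl: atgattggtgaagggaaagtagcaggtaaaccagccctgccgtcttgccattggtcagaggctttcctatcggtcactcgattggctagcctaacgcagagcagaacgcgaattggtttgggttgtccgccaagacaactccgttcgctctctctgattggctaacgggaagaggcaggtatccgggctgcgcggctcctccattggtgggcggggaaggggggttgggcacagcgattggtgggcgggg
Nr1d2: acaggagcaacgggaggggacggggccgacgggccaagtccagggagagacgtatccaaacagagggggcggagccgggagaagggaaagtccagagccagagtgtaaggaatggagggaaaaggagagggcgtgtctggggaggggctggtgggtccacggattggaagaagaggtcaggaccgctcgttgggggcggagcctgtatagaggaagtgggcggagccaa
The Per1 window shown holds an E-box that begins 166 bases before the start and a D-box that begins 24 bases before it. The other Per1 entry, at chr11:69099902-69100151, holds neither motif. The E-box of Cry1 begins 60 bases before the start, and that of Tef 138 bases before it. The Arntl and Nr1d2 windows hold neither motif. Of the 10 members, 9 had an entry in the promoter table, 14 entries in all, and Per2 is named only. Of these, 4 entries from 3 genes held an E-box in the 250 bases upstream, against 6.02% of the 32851 promoters in the table, and 1 held a D-box, against 3.07%. The ROR and NR1D element TAGGTCA (2.23% of all promoters) and the cAMP response element TGACGTCA (1.55%) were found in 0 of the 14. The shorter TGACG, which is part of the cAMP element and is held by 17.8% of all promoters, was found in 4 of the 14 entries, from Per1 (both entries), Cry1 and Cry2. These matches are letters in a short window and say nothing of binding. Bases outside the window, among them those after each entry's start, were not searched, so a 0 here is not an absence from the gene.

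Across the 6 organs, 9 of the 10 members differed in the limma F test at a Benjamini-Hochberg adjusted p under 0.05, against 68.0% of all genes tested. The share called among all genes was thus high, and a count of members near it is no result about the clock genes. Cry1 was the exception, with an adjusted p of 0.0940. Over the 15 pairs of organs, 76 of the 150 member values were called. The share called among all genes tested ran from 14.3% in spleen against lymph node to 43.7% in blood against lung.

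**Figure D1:**
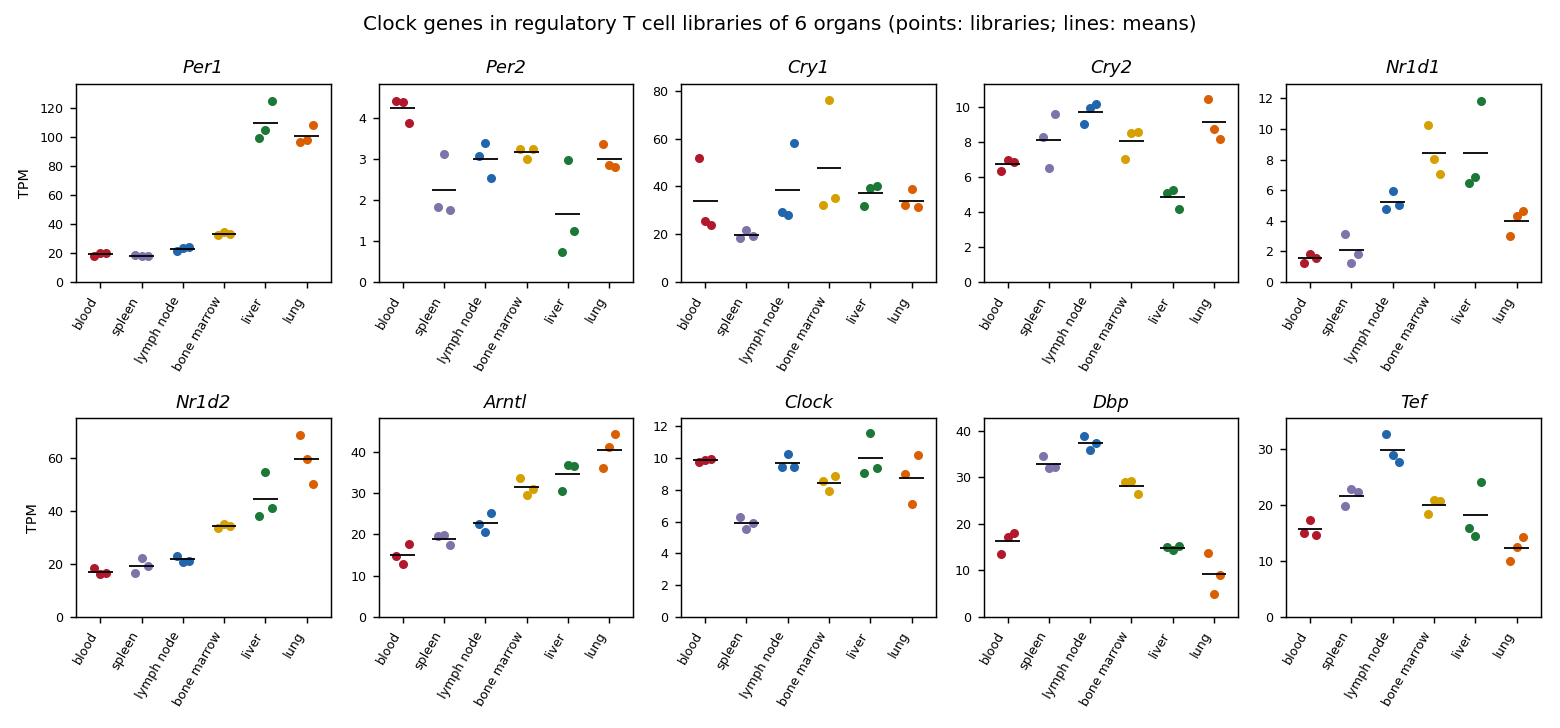
TPM of the 10 clock genes in each library by organ; points are libraries and lines are organ means of 3, and each panel has its own scale from 0. Per1 is at 96.6 or more in liver and lung and at 34.6 or less in the other organs, while Dbp is lowest in liver, lung and blood.

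The labelled cell type was checked first. The 7 Treg genes of a marker list averaged at least 1 TPM in every organ, and Foxp3 itself ran from 88.7 ± 3.39 TPM (SD, n = 3) in blood to 239 ± 2.14 TPM in lymph node. Markers of other cells were unevenly spread. The 14 myeloid genes summed to between 25770 and 26630 TPM in blood and between 38030 and 38240 TPM in bone marrow, against between 1752 and 1815 TPM in lung and at most 865.7 TPM in the other organs, with all 14 genes at or above 1 TPM in blood and marrow. The 7 platelet genes, all at or above 1 TPM in blood, summed to between 2209 and 2244 TPM in blood and to at most 82.8 TPM elsewhere. The 20 T cell genes summed to between 5291 and 5407 TPM in blood and to between 8150 and 12660 TPM in the other organs. Hepatocyte genes summed to between 7.64 and 16.7 TPM in liver, where 3 of 8 reached 1 TPM and Apoa2, Cyp3a11 and Ttr were listed at 0. Lung epithelium genes summed to between 224.7 and 300.7 TPM in lung, where 6 of 8 reached 1 TPM and Cldn18 was listed at 0, and to at most 31.4 TPM elsewhere. Most of the lung sum was Scgb1a1, at 264, 197 and 215 TPM. Ager and Epcam averaged at least 1 TPM in every organ. Ager went the other way, at 2.88, 2.21 and 1.63 TPM in lung and at least 8.13 TPM in every other library. Erythroid genes summed to between 10930 and 11970 TPM in liver, between 6363 and 6549 in bone marrow, between 2826 and 2992 in blood and at most 1986 in the rest. B and plasma cell genes summed to between 615.9 and 672.6 TPM in spleen, to between 533.8 and 578.5 TPM in blood and bone marrow, to between 131.8 and 142.8 TPM in lymph node, and to at most 151.2 TPM in lung and 111.9 TPM in liver, with 8 of 8 at or above 1 TPM in each but lymph node. The 6 cytotoxic cell genes summed to between 451.7 and 515.4 TPM in blood and to at most 77.1 TPM elsewhere. The part of these cells in the clock gene values was not tested, and fewer Treg cells and less Treg RNA per cell cannot be told apart in bulk libraries. Since a TPM is a share of a library, values scaled to the geometric mean of 20 T cell genes were computed as well. This scaling moved the median log2 difference of all genes by 0.97 for blood against lymph node, 0.82 against spleen, 0.76 against liver, 0.51 against lung and 0.46 against bone marrow, and by -0.52 for lymph node against bone marrow. A member's own shift is read against these.

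Per1 (ENSMUSG00000020893, chr11:69095217-69109960, GRCm38) encodes a repressor that pairs with the cryptochromes, and its window above held both motifs. Per1 measured 99.3, 105 and 125 TPM in the 3 liver libraries and 96.6, 98.2 and 108 TPM in the 3 lung libraries. It measured 18.6, 17.7 and 18.2 TPM in spleen, 17.8, 19.9 and 20.0 TPM in blood and 21.2, 23.2 and 24.4 TPM in lymph node. The 3 bone marrow libraries stood between, at 32.5, 34.6 and 33.0 TPM. No liver or lung library overlapped any library of the other 4 organs, and each bone marrow library lay above all of spleen, blood and lymph node. Liver was 6.03-fold above spleen in TPM, a log2(TPM + 1) difference of 2.52 (SE 0.096, limma adjusted p = 1.61e-11), and 5.69-fold above blood (adjusted p = 1.4e-11). The blood difference was also called when scaled to T cell genes, where blood minus liver was -1.56 and blood minus lung -1.73. Liver and lung differed by 0.11 (95% interval -0.09 to 0.32, adjusted p = 0.402), and blood and spleen by 0.08 (-0.13 to 0.28, adjusted p = 0.591). Lymph node lay 0.52 below bone marrow (adjusted p = 0.000668). Blood minus bone marrow was -0.76 (adjusted p = 1.5e-05), but -0.20 when scaled to T cell genes (adjusted p = 0.0841). In order of level the organs ran spleen, blood, lymph node, bone marrow, lung and liver, and only the steps to bone marrow and to lung were called.

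Per2 (ENSMUSG00000055866, chr1:91415982-91459324), another period gene, was far lower and did not share that order. Blood held 4.43, 4.40 and 3.89 TPM and liver 0.740, 2.99 and 1.24 TPM. The other 4 organs had means between 2.24 and 3.17 TPM. Every blood library was above every liver library, and liver spread widely, with a coefficient of variation of 71.3%. Blood minus liver was 1.07 (SE 0.27, limma adjusted p = 0.00427), and the call held in all 24 alternatives run. Its F test had an adjusted p of 0.0309, which rose to 0.0720 without liver replicate 1, 0.0783 without liver replicate 3, 0.0721 without blood replicate 1, 0.0716 without blood replicate 2 and 0.0557 without blood replicate 3. The call of blood above spleen (0.72, adjusted p = 0.0471) was lost in 14 of 24 alternatives, the least certain being without spleen replicate 3 (adjusted p = 0.143). None of the 5 steps between neighbouring organs was called for Per2. The log2 ratio of Per1 to Per2 within a library averaged 6.28 in liver and 5.07 in lung, with every library of both at 4.84 or more, and between 2.19 and 3.40 in the other 4 organs.

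Cry1 (ENSMUSG00000020038, chr10:85131700-85185064), the strongest repressor of the cryptochrome pair, varied widely between libraries of 1 organ. Spleen held 18.6, 21.7 and 19.2 TPM. Lymph node held 29.4, 28.0 and 58.0 TPM, bone marrow 32.2, 76.1 and 35.3 TPM, and blood 51.7, 25.3 and 24.0 TPM. In each of these 3 organs a single library stood apart from the other 2, giving coefficients of variation of 44.0%, 51.2% and 46.4%. Liver and lung, at means of 37.2 and 34.0 TPM, varied by 12.3% and 11.9%. Spleen below bone marrow (-1.12, SE 0.33, limma adjusted p = 0.0217) was the only pair called of 15, and the call was lost without bone marrow replicate 2 (-0.74, adjusted p = 0.126), without spleen replicate 1 (adjusted p = 0.0640) and without spleen replicate 3 (adjusted p = 0.0592). Without blood replicate 1, the F test for Cry1 had an adjusted p of 0.0358, and scaled to T cell genes 0.00268. No step between neighbouring organs was called for Cry1, although every spleen library was below every blood library (0.65, limma adjusted p = 0.153).

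Cry2 (ENSMUSG00000068742, chr2:92403646-92434043) was lowest in liver, at 5.07, 5.26 and 4.20 TPM. Lymph node held 9.03, 9.93 and 10.2 TPM, and lung 10.49, 8.76 and 8.19 TPM. No liver library overlapped those of either organ. Lymph node minus liver was 0.88 (SE 0.16, limma adjusted p = 0.00075) and liver minus lung -0.79 (adjusted p = 0.00138; 0.0575 with library weights). Blood minus lymph node was -0.47 (adjusted p = 0.0335) in TPM but 0.63 when scaled to T cell genes, so its direction depends on the scale; it also lost its call without any single lymph node or blood library, at adjusted p-values between 0.0530 and 0.103. In order of level the organs ran liver, blood, bone marrow, spleen, lung and lymph node, and no step between neighbours was called. Every liver library was nonetheless below every blood library (0.41, limma adjusted p = 0.0605).

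Nr1d1 (ENSMUSG00000020889, chr11:98767932-98775333), which encodes the repressor REV-ERB alpha, was low in blood and spleen. Blood held 1.27, 1.83 and 1.55 TPM and spleen 3.15, 1.23 and 1.84 TPM. Bone marrow held 10.3, 8.03 and 7.04 TPM, liver 6.50, 6.89 and 11.8 TPM, lymph node 4.80, 5.95 and 5.03 TPM, and lung 3.00, 4.32 and 4.65 TPM. All bone marrow, liver and lymph node libraries were above all blood and spleen libraries. Blood minus bone marrow was -1.88 (SE 0.26, limma adjusted p = 4.41e-05), a 5.45-fold difference in TPM, and blood minus liver was -1.84 (adjusted p = 3.55e-05). Spleen minus bone marrow was -1.65 (adjusted p = 0.000198). These 3 calls held in all 24 alternatives run. Blood minus lung was -0.96 (adjusted p = 0.00776) and lost its call when scaled to T cell genes (-0.55, adjusted p = 0.0766). Of the exon bases of Nr1d1, 263, or 8.50%, lie opposite exons of Thra, the thyroid hormone receptor gene on the other strand, and whether reads were counted by strand is not given in the sources used here. Thra had another order, with bone marrow at 24.9 TPM, blood at 18.8, lymph node at 18.7, liver at 14.3, spleen at 11.5 and lung at 9.43.

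Nr1d2 (ENSMUSG00000021775, chr14:18204054-18239127) encodes the related repressor REV-ERB beta and was several-fold above Nr1d1 in every library. Lung held 68.9, 59.7 and 50.3 TPM and liver 38.1, 54.7 and 41.0 TPM. Bone marrow held 33.6, 35.1 and 34.4 TPM, against 18.6, 16.3 and 16.6 TPM in blood, 16.5, 22.3 and 19.2 TPM in spleen and 23.2, 20.9 and 21.3 TPM in lymph node. Lung, liver and bone marrow libraries did not overlap those of blood, spleen and lymph node. Blood minus lung was -1.73 (SE 0.14, limma adjusted p = 7.99e-08) and blood minus liver -1.32 (adjusted p = 2.16e-06), and both were also called when scaled to T cell genes (-1.13 and -0.44). Lymph node lay 0.63 below bone marrow (adjusted p = 0.00399). Lung above liver, a difference of 0.42 (adjusted p = 0.0361), was lost without liver replicate 1 (adjusted p = 0.128), liver replicate 3 (0.0954), lung replicate 1 (0.142) or lung replicate 2 (0.0745). The within-library log2 ratio of Nr1d2 to Nr1d1 ranged from 1.71 in a bone marrow library to 4.52 in a lung library.

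Arntl (ENSMUSG00000055116, chr7:113207465-113314126) is the gene that the NR1D proteins repress, and its level ran beside that of Nr1d2. Lung held 36.0, 41.1 and 44.2 TPM, liver 30.5, 36.8 and 36.6 TPM, and bone marrow 33.6, 29.6 and 31.0 TPM. Lymph node held 22.5, 20.6 and 25.3 TPM, spleen 19.7, 19.8 and 17.3 TPM, and blood 14.8, 12.8 and 17.8 TPM. The first 3 organs did not overlap the last 3. Blood minus lung was -1.37 (SE 0.13, limma adjusted p = 3.87e-07) and was called under all 24 alternatives. Blood minus liver was -1.15 (adjusted p = 3.29e-06), and -0.28 when scaled to T cell genes (adjusted p = 0.0661). Blood minus lymph node was -0.57 (adjusted p = 0.0027) and turned to 0.60 under that scaling. Spleen minus lung was -1.05 (adjusted p = 9.33e-06) and spleen minus liver -0.83 (adjusted p = 0.000183), each called in all 24 alternatives. Between neighbours in this order, only the step from lymph node to bone marrow was called (0.45, limma adjusted p = 0.0212). That call was lost without lymph node replicate 1 (0.0640), lymph node replicate 2 (0.103), bone marrow replicate 1 (0.0895) or bone marrow replicate 3 (0.0535).

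Clock (ENSMUSG00000029238, chr5:76209868-76304792), the partner of Arntl, had the smallest range of organ means on the log2(TPM + 1) scale of the 10 members. Its organ means lay between 5.90 ± 0.38 TPM (SD, n = 3) in spleen and 10.03 ± 1.37 TPM in liver. Spleen held 6.28, 5.52 and 5.89 TPM and blood 9.74, 9.87 and 9.97 TPM. Every spleen library was below every library of the other 5 organs. Blood minus spleen was 0.66 (SE 0.15, limma adjusted p = 0.00239) and spleen minus liver -0.67 (adjusted p = 0.00276), and both held in all 24 alternatives. Blood and liver differed by -0.01 (95% interval -0.33 to 0.30). The log2 ratio of Arntl to Clock within a library averaged 2.22 in lung and 0.60 in blood, with no overlap between them.

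Dbp (ENSMUSG00000059824, chr7:45705088-45710203), a D-box activator and a direct E-box output, ran the other way from Arntl in liver and lung. Lymph node held 38.9, 35.8 and 37.3 TPM, spleen 34.5, 32.1 and 32.1 TPM, and bone marrow 29.1, 29.2 and 26.3 TPM. Liver held 15.04, 14.4 and 15.2 TPM, lung 13.8, 4.86 and 8.90 TPM, and blood 13.5, 17.2 and 17.9 TPM. The first 3 organs did not overlap the last 3. Lymph node minus lung was 2.01 (SE 0.23, limma adjusted p = 2.98e-06), a 4.06-fold difference in TPM, and lymph node minus liver 1.27 (adjusted p = 0.000539). Spleen minus lung was 1.83 (adjusted p = 8.51e-06) and bone marrow minus lung 1.62 (adjusted p = 2.93e-05). These 4 calls held in all 24 alternatives, while liver above lung (0.74, adjusted p = 0.0192) was lost without lung replicate 2 (0.39, adjusted p = 0.0693), when scaled to T cell genes (0.48, adjusted p = 0.116) and with library weights (adjusted p = 0.116). The low level in blood depends on the scale: blood minus spleen was -0.99 (adjusted p = 0.00273) and blood minus lymph node -1.16 (adjusted p = 0.000695) in TPM, but 0.002 and 0.02 when scaled to T cell genes. Blood minus bone marrow was -0.77 (limma adjusted p = 0.0165) in TPM and, so scaled, -0.215 (adjusted p = 0.504). Blood minus lung was 0.85 (adjusted p = 0.00645) and, so scaled, 1.46. Of the exon bases of Dbp, 539, or 18%, lie opposite exons of Sphk2, a sphingosine kinase gene. Sphk2 was also lowest in liver and lung, at 12.6 and 15.1 TPM, but stood at 26.8 TPM in blood and between 23.4 and 24.3 TPM in spleen, lymph node and bone marrow.

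Tef (ENSMUSG00000022389, chr15:81802421-81826863), the related D-box activator, followed the order of Dbp at its ends. Lymph node held 32.6, 28.9 and 27.8 TPM, lung 9.95, 12.6 and 14.3 TPM and blood 14.9, 17.2 and 14.7 TPM. Liver held 16.0, 14.5 and 24.1 TPM, spleen 19.8, 22.9 and 22.3 TPM and bone marrow 18.3, 20.9 and 20.7 TPM. No lymph node library overlapped one of any other organ. Lymph node minus lung was 1.23 (SE 0.17, limma adjusted p = 2.67e-05) and bone marrow minus lung 0.67 (adjusted p = 0.00457), both called in all 24 alternatives. Blood minus lymph node was -0.89 (adjusted p = 0.000592) in TPM and moved to 0.29 (adjusted p = 0.140) when scaled to T cell genes, and lymph node minus bone marrow was 0.55 (adjusted p = 0.0274) and moved to -0.07 (adjusted p = 0.774). No step between neighbouring organs was called for Tef, that from spleen to lymph node included (0.44, limma adjusted p = 0.105).

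**Figure D2:**
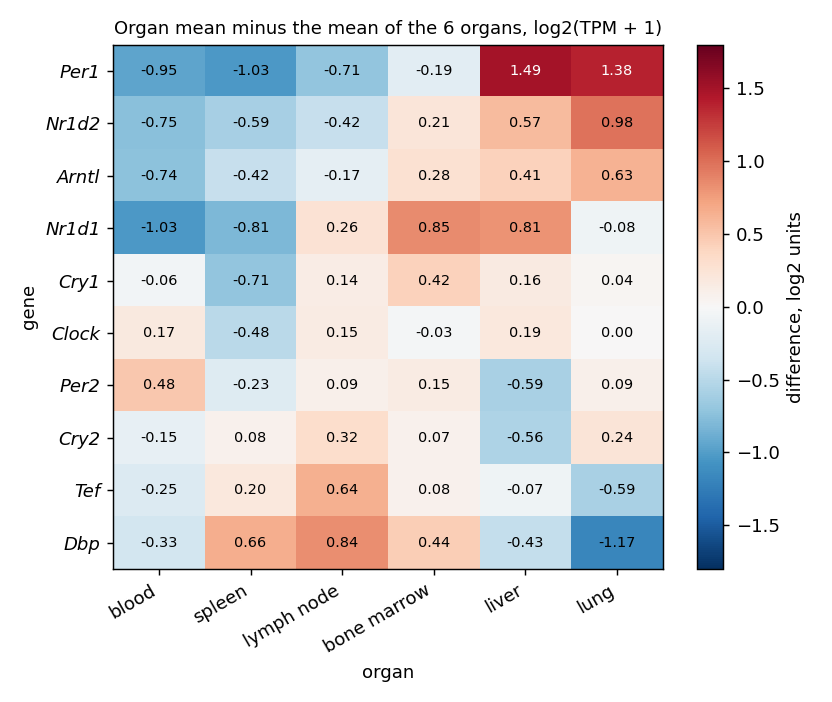
Organ mean of log2(TPM + 1) minus the mean of the 6 organ means for each clock gene; red is above and blue below that gene's mean. Per1, Nr1d2 and Arntl are above it in liver and lung (0.41 to 1.49), where Dbp and Tef are below it (-0.07 to -1.17).

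The members fell into profiles that can be described over the 6 organ means, which share their libraries and their scale. Nr1d2 and Arntl had a Pearson correlation of 0.972, Per1 and Nr1d2 of 0.943, and Per1 and Arntl of 0.883 (n = 6 organs each). Dbp and Tef had 0.933. Per1 and Dbp had -0.742, and Nr1d2 and Dbp -0.668. Per1 and Per2 had -0.500, and Arntl and Clock 0.183. Although Nr1d2 is a repressor of Arntl and an E-box output like Dbp, its organ profile was the closest of the 9 others to that of Arntl. Genes with the profile nearest to a member's were found among up to 9650 genes with at least 10 TPM in an organ, by the root mean square difference of profiles scaled to unit SD. For Per1 they were Impact (0.130), Ppp2r2d (0.136) and Csrnp1 (0.140), and for Arntl N4bp2l2 (0.083), Rab4a (0.131) and Atg4b (0.158). For Dbp they were Glmp (0.056), Tomm40l (0.090) and Pdia4 (0.092), and for Nr1d1 Mms22l (0.199), Spsb3 (0.205) and Hmgxb4 (0.245).

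Ratios of 2 genes within a library do not depend on how that library is scaled. The log2 ratio of Arntl to Dbp was 1.38, 3.08 and 2.31 in the lung libraries and 1.02, 1.35 and 1.26 in the liver libraries. It was -0.81, -0.70 and -0.89 in spleen and -0.79, -0.80 and -0.56 in lymph node. Bone marrow (0.21, 0.02 and 0.24) and blood (0.13, -0.42 and -0.01) lay between. Every liver and lung library therefore held more Arntl than Dbp per length, and every spleen and lymph node library held less. The log2 ratio of Arntl to Tef gave the same ends, with a mean of 1.73 in lung and 0.96 in liver against -0.19 in spleen and -0.39 in lymph node. The log2 ratio of Per1 to Arntl averaged 1.66 in liver and 1.32 in lung and lay between -0.06 and 0.36 in the other 4 organs. By these ratios the Arntl to Dbp balance of blood lay close to that of bone marrow (means of -0.10 and 0.15), with overlapping libraries. Blood and bone marrow also held the highest myeloid sums. A ratio does not remove RNA of other cells, and their part in it was not tested.

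**Figure D3:**
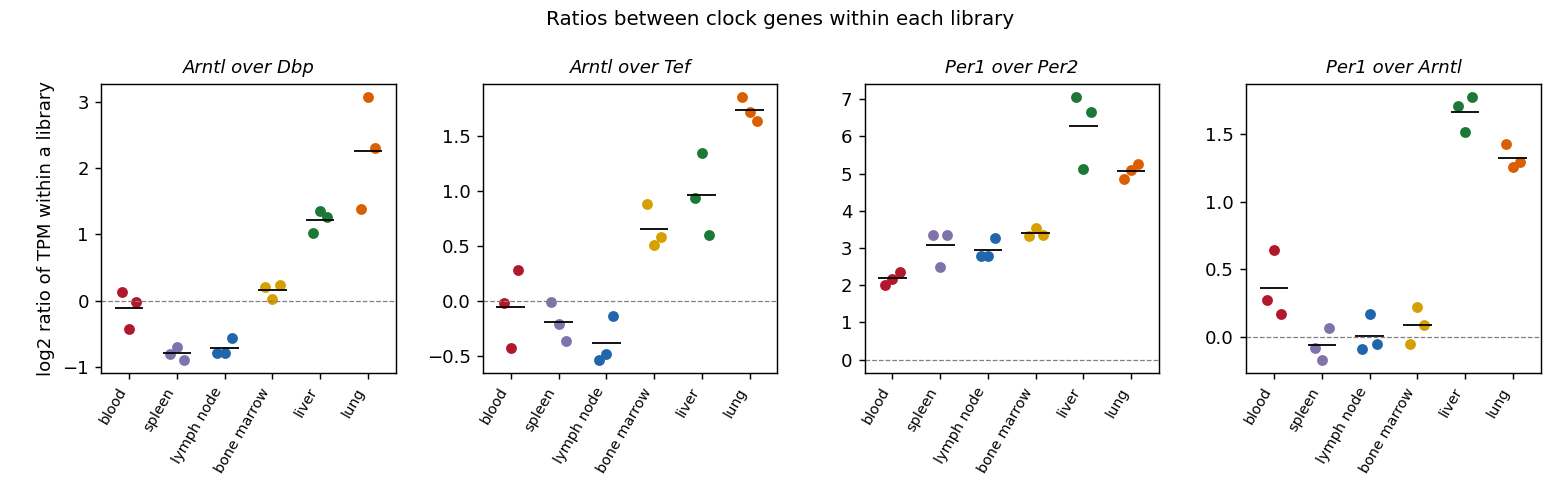
Log2 ratio of TPM between pairs of clock genes within each library by organ; points are libraries, lines are means of 3 and the dashed line is an equal level. Arntl over Dbp is above 1 in all liver and lung libraries and below -0.5 in all spleen and lymph node libraries.

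Counts over the 10 members follow, each beside the percentage of all 16694 genes called in that pair at a limma adjusted p under 0.05. In spleen against lung 7 members were called (40.8% of all genes), 2 higher in spleen (Dbp and Tef) and 5 lower (Per1, Nr1d1, Nr1d2, Arntl and Clock). The Nr1d1 call there (-0.73, limma adjusted p = 0.0371) was lost in 7 of 24 alternatives, the Clock call in 2 and the Tef call in 1. Spleen against liver also gave 7 (31.3%), 2 higher (Dbp and Cry2) and 5 lower (Per1, Nr1d1, Nr1d2, Arntl and Clock). The median log2 difference of the members was -0.61 and -0.75 in these pairs, against 0.08 and 0.06 over all genes tested. Spleen against bone marrow gave 6 (24.1%), all lower in spleen, and 4 to 6 when 1 library was left out. The Clock call in that pair (-0.45, limma adjusted p = 0.0363) was lost in 11 of 24 alternatives and the Cry1 call in 4. Spleen against lymph node gave 3 (14.3%), all lower in spleen. The latter 3, Per1, Nr1d1 and Clock, fell to 1 without spleen replicate 2 or lymph node replicate 2, to 1 under median-ratio scaling and to 0 when scaled to T cell genes (2 at an unadjusted limma p under 0.05), so spleen and lymph node were not separated by these genes on every scale.

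Lymph node against liver gave 6 called members (31.1%), with Dbp, Tef and Cry2 higher and Per1, Nr1d2 and Arntl lower in lymph node. Lymph node against lung gave 5 (42.3%), 2 higher (Dbp and Tef) and 3 lower (Per1, Nr1d2 and Arntl). Lymph node against bone marrow gave 4 (22.5%), 1 higher and 3 lower. That count was 8 with library weights, where the F test called 75.5% of all genes, against 68.0% in the main fit. It was 2 without lymph node replicate 1, lymph node replicate 2, bone marrow replicate 1 or bone marrow replicate 3. Bone marrow against liver gave 4 (34.5%), with Per2, Cry2 and Dbp higher and Per1 lower. The Per2 call (0.74, adjusted p = 0.0420) was lost in 14 of 24 alternatives, with an adjusted p of 0.160 without liver replicate 1. Bone marrow against lung gave 6 (43.5%), with Nr1d1, Dbp and Tef higher and Per1, Nr1d2 and Arntl lower. The Arntl call (-0.35, adjusted p = 0.0413) was lost in 10 of 24 alternatives, 7 of which left out 1 library, with an adjusted p of up to 0.129 without lung replicate 3, and the Nr1d1 call was lost without bone marrow replicate 1 (adjusted p = 0.0514). Liver against lung gave 5 (34.9%), with Nr1d1, Dbp and Tef higher and Nr1d2 and Cry2 lower in liver. That count was 2 without liver replicate 3 or lung replicate 1, 3 without lung replicate 2 and 0 with library weights (2 at an unadjusted limma p under 0.05).

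Blood was the organ the series set against the others. Blood against lung gave 5 called members (43.7%), with Per1, Nr1d1, Nr1d2 and Arntl lower and Dbp higher in blood, and blood against liver gave 5 (39.4%), with Per1, Nr1d1, Nr1d2 and Arntl lower and Per2 higher. Blood against bone marrow gave 5 (31.8%), all lower: Per1, Nr1d1, Nr1d2, Arntl and Dbp. The Dbp call in that pair was lost in 5 of 24 alternatives, 3 of which left out 1 library. Blood against lymph node gave 5 (37.4%), all lower: Cry2, Nr1d1, Arntl, Dbp and Tef. That count was 3 under median-ratio scaling and 8 with library weights. Blood against spleen gave 3 (35.4%), with Clock and Per2 higher and Dbp lower. Scaled to T cell genes, the counts were 8 against spleen and 8 against liver. The F test called 68.0% of all genes in the main fit, 75.5% with library weights and 78.0% when scaled to T cell genes. Shares of all genes per pair are not given for these settings, so the higher counts are no result about the clock genes. Under the T cell scaling Cry2 (0.63) and Arntl (0.60) were called higher in blood than in lymph node, where the median of all genes moved by 0.97. Tef (0.29) was no longer called there, and Dbp did not differ from lymph node (0.02, adjusted p = 0.962) or spleen (adjusted p = 1) beyond its spread, while Per1 and Nr1d2 remained lower in blood than in liver and lung. The blood libraries carried the myeloid, platelet and cytotoxic cell sums given above beside every one of these values.

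**Figure D4:**
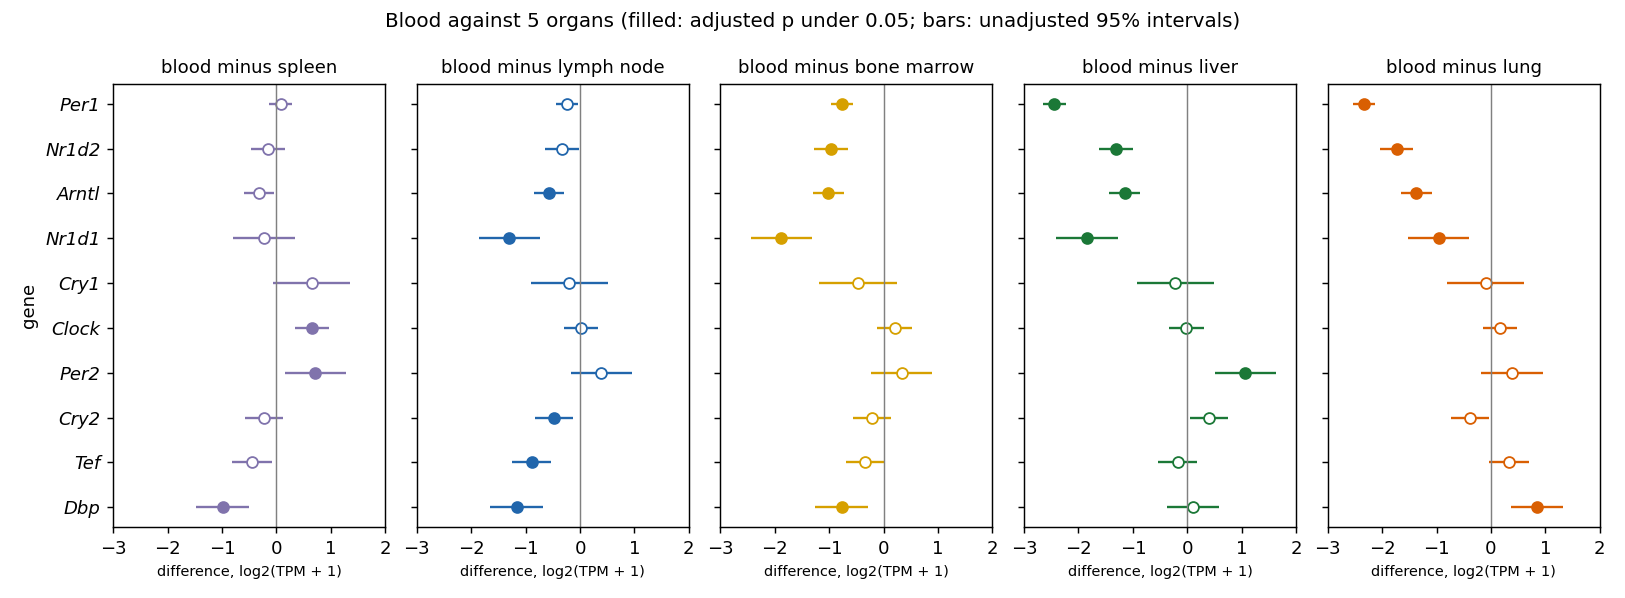
Difference of blood minus each other organ on the log2(TPM + 1) scale for each clock gene; bars are unadjusted 95% intervals and filled points have a limma adjusted p under 0.05. Per1 is farthest below 0 against liver (-2.44) and lung (-2.33), and blood against spleen is near 0 for Per1 (0.08).

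Other genes of the clock were taken as a list of 26, of which 24 were tested and 22 were called in the F test, against 68.0% of all genes. Rorb and Arntl2 were too low to test. In spleen against lung 2 of the 24 were higher and 15 lower (40.8% of all genes called), and in spleen against liver 0 were higher and 13 lower (31.3%). In lymph node against lung 6 were higher and 13 lower (42.3%). The median log2 differences of the list were -0.97, -0.69 and -0.64, against 0.08, 0.06 and 0.20 over all genes tested. Scaled to T cell genes, the split was 0 and 15 in spleen against lung, 0 and 13 in spleen against liver, and 2 and 14 in lymph node against lung. The blood pairs depended more on the scale. Blood against liver gave 1 higher and 10 lower in TPM (39.4% of all genes called) and 11 and 3 when scaled to T cell genes, blood against lung 1 and 13 (43.7%) and then 4 and 7, and blood against lymph node 5 and 6 (37.4%) and then 12 and 1. Blood against spleen gave 6 and 3 (35.4%) and then 13 and 0, and blood against bone marrow 4 and 10 (31.8%) and then 9 and 5. The shares in brackets are those in TPM. In these blood pairs the T cell scaling moved the median of all genes up in blood, by between 0.46 and 0.97. The F test called 78.0% of all genes under that scaling.

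Rora encodes the receptor that opposes the NR1D proteins at Arntl, and it was high in the same organs as Arntl. It measured 165, 152 and 138 TPM in lung and 128, 117 and 139 TPM in liver, against 37.1, 40.0 and 37.3 TPM in bone marrow and at most 16.6 TPM in any library of the other organs. Blood minus lung was -4.06 (limma adjusted p = 5.18e-13). Nfil3, whose protein competes with DBP and TEF at the D-box, measured 146, 159 and 150 TPM in lung and 71.0, 68.2 and 86.9 TPM in liver. It lay between 14.8 and 37.8 TPM in all other libraries, and lung exceeded spleen by 2.99 (adjusted p = 1.19e-11). Bhlhe40, a repressor that acts at E-boxes, had means of 404 TPM in lung and 368 TPM in liver and at most 68.4 TPM elsewhere.

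Ciart, a repressor of the CLOCK and ARNTL pair whose upstream window held 3 E-boxes, had means of 21.1 TPM in lung and 12.4 TPM in liver and at most 5.10 TPM elsewhere. Hlf, the remaining member of the DBP and TEF family, did not share their profile: its mean was 15.9 TPM in lung and between 1.15 and 6.05 TPM in blood, spleen, lymph node and bone marrow. In liver Hlf measured 4.14, 16.1 and 2.66 TPM, so its mean of 7.63 TPM rests on 1 library and the other 2 lay below all bone marrow libraries. Usp2, a deubiquitinase gene, measured 15.9, 32.3 and 14.3 TPM in lung and was listed at 0 in liver replicate 2. Its mean was at most 2.29 TPM outside lung. Bhlhe41 averaged 6.74 TPM in lung and at most 1.39 TPM elsewhere. Per3, the remaining period gene, was at or below 3.09 TPM in every library, with its highest mean in bone marrow (2.64 TPM). Npas2, which can stand in for Clock, was not called (adjusted p = 0.416) and was at or below 3.20 TPM in every library but lung replicate 2, where it was 9.10 TPM; without that library the F test had an adjusted p of 0.0454.

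**Figure D5:**
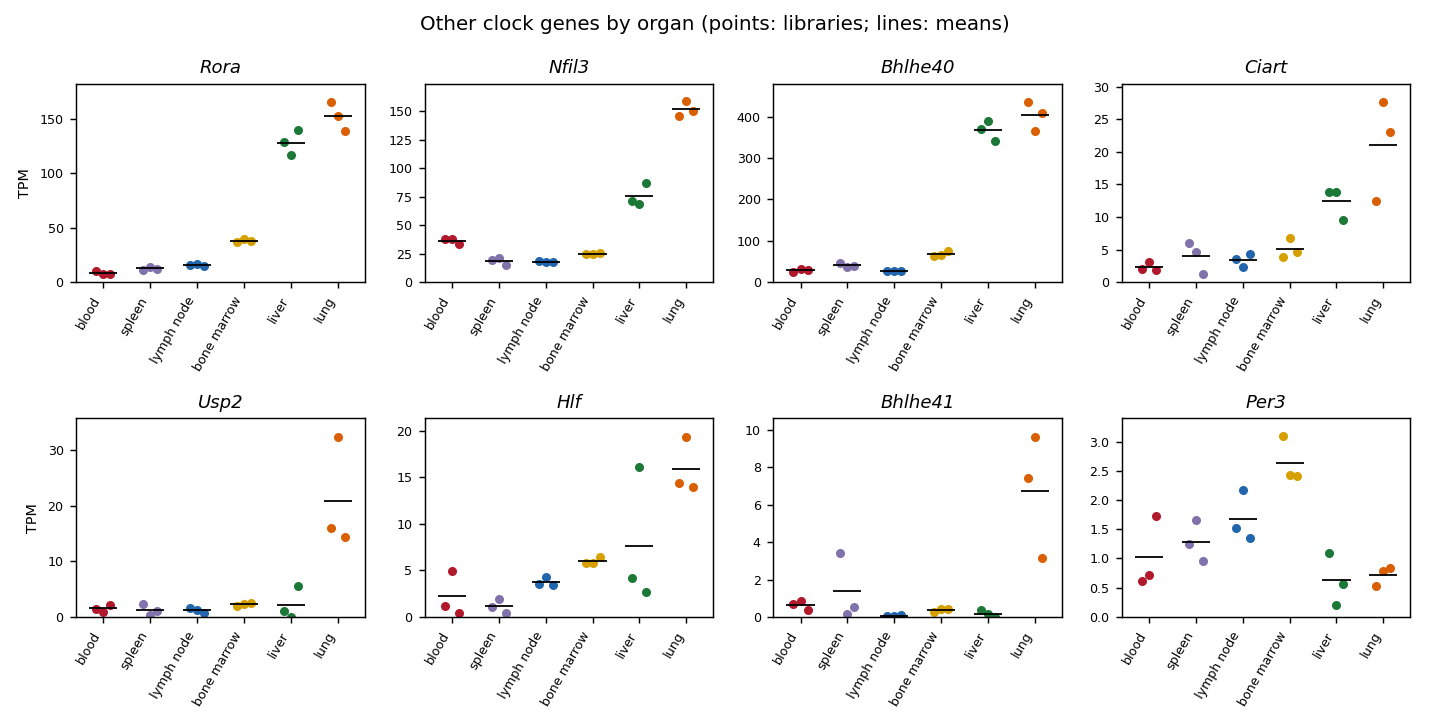
TPM of 8 other clock genes in each library by organ; points are libraries, lines are means of 3, and each panel has its own scale from 0. Rora, Nfil3, Bhlhe40 and Ciart have their highest means in lung and liver.

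Because Per1 also answers to cAMP and glucocorticoids, the genes of those responses were counted. Of 12 genes induced by cAMP, all 12 were called in the F test (68.0% of all genes). In spleen against liver 12 were lower and 0 higher (31.3% of all genes called), and in spleen against lung 11 were lower and 0 higher (40.8%). The median differences were -2.79 and -3.03, against 0.06 and 0.08 over all genes tested. In blood against spleen, where Per1 differed by 0.08, 9 were higher in blood and 2 lower (35.4% of all genes called), with a median of 1.04 against 0.00 over all genes. Crem, the cAMP-responsive modulator gene, had means of 1337 TPM in lung, 503 TPM in liver and between 11.8 and 38.2 TPM in the other 4 organs. Fosb, a subunit gene of the AP-1 factor, peaked instead in bone marrow, at a mean of 362 TPM, against 90.9 TPM in liver and 116 TPM in lung. Atf3, a stress-induced factor gene, had its highest mean in blood, at 84.3 ± 2.40 TPM, and measured 57.0, 92.1 and 41.1 TPM in lung. Of 10 genes listed for the glucocorticoid response, among them Nr3c1, which encodes the receptor itself, 9 were called in the F test (68.0% of all genes). In spleen against liver 7 were lower and 0 higher (31.3% of all genes called), and in spleen against lung 8 were lower and 1 higher (40.8%). The median differences were -1.20 and -1.15. In blood against spleen 7 were higher in blood and 2 lower (35.4%), with a median of 1.16. Sgk1, a kinase gene, and Errfi1, which encodes a receptor inhibitor, were highest in lung, at 155 and 44.1 TPM, while Dusp1, a phosphatase gene, was highest in bone marrow (1201 TPM), ahead of liver (968 TPM). The part of either response in the level of Per1 was not tested.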

How the data were processed

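The authors deposited 1 table per library of TPM for 55487 Ensembl gene IDs, with totals from 999999.27 to 1000000.62. Per the submitters' processing notes, STAR, RSEM and the mm10 build were used; versions, annotation and strand use are not given in the sources used here. Libraries were made with a directional kit, per the labels' protocols. TPM keeps no sequencing depth, so precision rests on the 3 libraries per organ. Genes above 0 per library differed by organ: 14314 to 14408 in liver, 15219 to 15606 in lung and 16685 to 16756 in spleen. Libraries of lymph node, bone marrow and blood held 18985 to 19797. No 2 tables were identical. Symbols and positions came from GENCODE M21 (GRCm38; 55141 IDs matched) and upstream sequences from RefSeq.

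All 18 libraries entered 1 limma fit (3.58.1, R 4.3.3) on log2(TPM + 1) with a mean per organ, eBayes with trend and robust settings, and Benjamini-Hochberg adjustment over the 16694 genes that averaged 1 TPM or more in an organ, threshold 0.05, two-sided. Fold changes are on that scale and understate the change of low genes. The fit was tested on simulated data. All members are named, and other genes by rule: the 3 widest-ranging called genes of each list and the members' direct partners, of which 1 is not reported here. Members and lists were chosen with earlier results of these data known. The 24 alternatives were a pseudocount of 0.1, no filter, T cell and median-ratio scaling, library weights, a replicate block, and leaving out each library. Adjustment over all 15 pairs together was run besides and is not among the 24. Deviations of same-numbered libraries correlated between -0.034 and 0.030 over 45 pairs. This gives no sign of pairing by replicate number but cannot exclude it, since the 3 libraries of an organ may be technical.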

Additional observations from a re-analysis of the deposited data

How the results depend on the processing

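Of the 76 calls of a member in a pair of organs, 44 held in all 24 alternatives, and 8 of the 10 members were called by the F test in each. The F test called from 43.6% (no filter) to 78.0% (T cell scaling) of all genes tested. The share of all genes whose calls held, and shares per pair in the alternatives, are not given. These counts are therefore no result about the clock genes. Scaling to T cell genes lost or reversed 20 calls. It gave 8 called members in blood against spleen and 8 in blood against liver, and 0 in spleen against lymph node. Under it the F test called 78.0% of all genes, against 68.0% in the main fit. The differences that changed sign were Dbp in blood against spleen (0.002) and blood against lymph node (0.021), Cry2 (0.632), Arntl (0.602) and Tef (0.290) in blood against lymph node, and Tef in lymph node against bone marrow (-0.071); the cause was not tested. Median-ratio scaling gave 3 in blood against lymph node and 1 in spleen against lymph node, with 65.2% of all genes called in the F test. Library weights gave 8 in blood against lymph node, 8 in lymph node against bone marrow and 0 in liver against lung, with 75.5% of all genes called in the F test. Leaving out 1 library gave 1 to 4 in spleen against lymph node, 2 to 4 in lymph node against bone marrow and 2 to 6 in liver against lung. The F test called 64.2% to 70.7% of all genes in those fits. Adjustment over all 15 pairs together lost 1 call, Arntl in bone marrow against lung (adjusted p = 0.0508). With the replicate number as a block, 14 of 16 counts of called members were unchanged, 9 in the F test among them, while spleen against bone marrow gave 5 and spleen against lung 6. The block lost the calls of Cry2 in blood against lymph node (adjusted p = 0.0512), Clock in spleen against bone marrow (0.0554) and Nr1d1 in spleen against lung (0.0535). TPM holds no depth, so the counting error of low genes such as Per2 and Nr1d1 is unknown.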
